A study of Mus musculus with 8 samples.

Results

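The cytosolic ribosomal protein genes were described in bulk RNA sequencing of mouse brain. They were chosen by symbol: rows that begin with Rpl or Rps and a digit, with Rplp0, Rplp1, Rplp2 and Rpsa, and without kinases, pseudogene symbols, symbols that end in l or l1, and Rps19bp1. The rule found 78 of 14765 rows, 46 for the large subunit and 32 for the small one, and left out 22 symbols that share the prefix. All 77 symbols of a list of the mouse cytosolic ribosomal proteins with such names had a row, and the remaining member was Rps27rt, a gene nearly identical in sequence to Rps27. The tissue is labelled PrL, taken here as the prelimbic cortex, and came from C57 mice in 2 groups of 4 libraries. One group is labelled SNI, read here as spared nerve injury, a partial cut of the branches of the sciatic nerve that gives lasting pain, and the other Sham. The labels give no drug, allele, age or time after surgery. Separate mice are not stated for the replicates, so the p-values reflect differences among 8 libraries, part of which may be technical.

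The small subunit of the ribosome reads the mRNA, and the large subunit joins amino acids into protein. Ribosomal RNA forms the core of each, with the ribosomal proteins around it, and the proteins are needed in matched amounts. Many of their mRNAs begin with a C and a run of pyrimidines, the TOP motif, through which mTORC1 and the RNA-binding protein Larp1 control their translation and stability as a group. In neurons these mRNAs are abundant and are also found in dendrites and axons.

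The starts of a few members are shown because this start is a feature of the family, found or not found in members that rose, in Rpl34, which fell, and in members that did not pass. RefSeq promoters (GRCm38.p6) were matched for 58 of the 78 members by symbol. Each line gives the 15 bases before the annotated start and the 15 bases from it, on the transcribed strand. Capitals mark the pyrimidine run opened by C, where a run of at least 4 was found.
Rpl34, first start, chr3:130730384-130730413, minus strand: cgCCTTCCCTgacgtacttcctgtccggcg
Rpl34, other start, chr3:130730323-130730352, minus strand: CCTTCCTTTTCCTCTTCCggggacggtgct
Rps6, chr4:86857353-86857382, minus strand: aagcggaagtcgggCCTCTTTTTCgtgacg
Rpl35, chr2:39005117-39005146, minus strand: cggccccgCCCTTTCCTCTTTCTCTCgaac
Rps10, chr17:27635230-27635259, minus strand: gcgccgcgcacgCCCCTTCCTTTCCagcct
Rpl18, chr7:45718056-45718085, plus strand: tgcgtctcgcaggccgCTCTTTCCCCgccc
Rps27, chr3:90213634-90213663, minus strand: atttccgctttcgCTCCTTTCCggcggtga
Rps27rt, chr9:114982725-114982754, minus strand: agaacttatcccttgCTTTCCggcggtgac
Rpl11, chr4:136053379-136053408, minus strand: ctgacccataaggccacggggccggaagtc
Rpl26, chr11:68901551-68901580, plus strand: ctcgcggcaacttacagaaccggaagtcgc

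A start base C that opens at least 5 pyrimidines was found in 14 of the 58 members (24.1%) and in 2.96% of 26967 other genes. Within 15 bases of the start, 29 members (50.0%) held a run of at least 7 pyrimidines opened by C, against 16.3% of other genes. The words CTTTCC or CTTTTCC, searched on the transcribed strand of that window, were in 22.4% of members and 2.0% of other genes. The word CCGGAAG, searched on both strands of the 300 bases of the promoter and close to the binding word of ETS factors, was in 24 members (41.4%) and in 9.86% of other genes. It stands near the end of the windows of Rpl11, which rose in SNI, and of Rpl26, which was low there. TATAAA, searched 15 to 40 bases before the start on the transcribed strand, was in 0 members and in 2.41% of other genes. Annotated starts can miss the base used in this tissue. Of the 29 members with the run of 7, 10 rose in SNI, and of the 29 without it, 9 did. The median log2 fold changes were 0.38 and 0.37. With the start base C that opens at least 5 pyrimidines, 3 of 14 rose, against 16 of 44 without it (medians 0.37 and 0.37). With CCGGAAG 5 of 24 rose, against 14 of 34 without it (medians 0.36 and 0.38). With CTTTCC or CTTTTCC 5 of 13 rose, against 14 of 45 without them (medians 0.35 and 0.38). These differences were not tested.

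All 78 members passed the filter on low counts and were tested among 13911 genes by edgeR's quasi-likelihood test, with the Benjamini-Hochberg false discovery rate (FDR) set at 0.05. At this threshold 27 members rose in SNI, where 2.15% of all genes tested did, and 1 member, Rpl34, fell, where 2.87% of all genes did (5.02% in either direction). The other 50 did not pass, 21 of them with an adjusted p of at most 0.1. The fitted log2 fold change (SNI minus Sham) was above 0 for 76 members, and its median was 0.38 against 0.01 over all genes tested. The 27 that rose lay between 0.31 and 0.52, a fitted change of 1.24-fold to 1.44-fold. In 38 members, 24 of them among the 27, all 4 SNI libraries lay above all 4 Sham libraries in CPM (counts scaled to a common library size). Such a pattern was seen in 5.64% of all genes. With libraries scaled by their totals alone, the calls over all genes divided into 446 higher and 276 lower (61.8% higher), against 299 and 399 (42.8%) in the reported scaling.

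**Figure D1:**
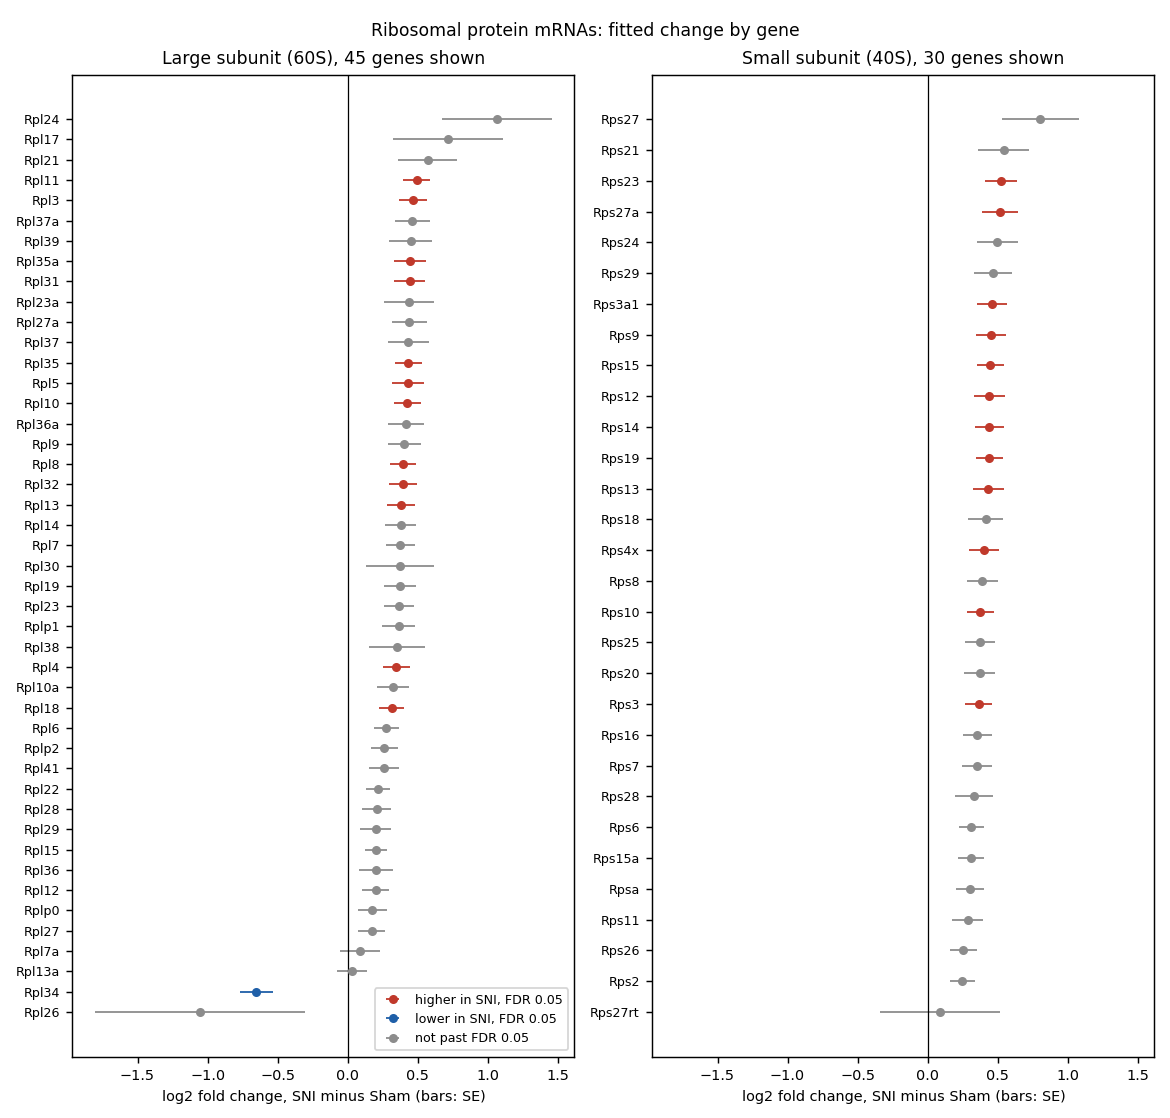
Fitted log2 fold change, SNI minus Sham, with its standard error, for 75 members of the large (left) and small (right) subunit. Most of them lie between 0.2 and 0.55 (62 of 75), while Rpl34 and Rpl26 lie below 0.

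These calls rested on a few libraries. Without Sham 3, the library lowest in these mRNAs, 1 member was called higher (background 0.642%), and without SNI 3, the highest, 2 were (background 0.7%). The calls numbered 10 without SNI 2 (background 1.43%), 8 without Sham 1 (1.22%) and 14 without Sham 2 (1.01%). They numbered 51 without SNI 1 (2.89%). All 27 remained above 0 in each of the 8 fits with a library left out, as did 74 of the 78 members. This says little about robustness, since the fits share most libraries and the 27 were chosen for rising in them. In 24 of the 27 all SNI libraries lay above all Sham libraries, so leaving out 1 library could hardly turn the sign. Without SNI 2 and SNI 3 together, 0 members were called higher by edgeR (background 0.355%), although 33 were higher at an unadjusted p below 0.05 (6.76% of all genes). Of the 78, 74 were above 0, with a median of 0.19. Without Sham 3 and SNI 3 together, again 0 were called (background 0.0717%), 39 were higher at an unadjusted p below 0.05 (6.02% of all genes), and the median was 0.25. Only Rpl11 kept its call as a riser in all 8 fits, as Rpl34 did on the lower side.

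The 78 genes took 1.596%, 1.65%, 1.41% and 1.68% of all counts in Sham 1 to 4 and 1.81%, 2.28%, 2.48% and 1.86% in SNI 1 to 4. All SNI libraries lay above all Sham libraries, with SNI 2 and SNI 3 apart from the other two. The means were 1.59% ± 0.120 and 2.11% ± 0.323 (SD, n = 4 each), a ratio of 1.33. The 95% Wilson interval of the share was 1.41% to 1.42% in Sham 3 and 2.47% to 2.49% in SNI 3. These intervals cover counting error only. Without counts of mitochondrially encoded genes the ratio was 1.33 as well. The members held between 229488 and 446006 counts in a library.

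**Figure D2:**
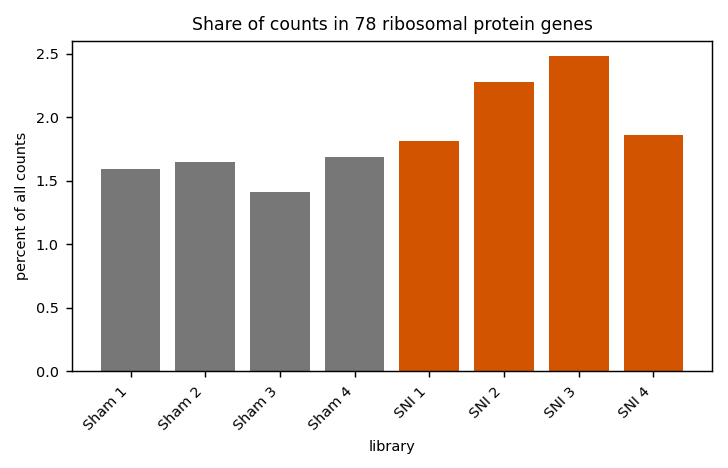
Percent of each library's counts that fell in the 78 ribosomal protein genes. The 4 Sham libraries lie between 1.41% and 1.68%, and the 4 SNI libraries between 1.81% and 2.48%.

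The members moved together from library to library. SNI 3 was the highest of the 8 libraries for 60 members and SNI 2 for 13. Sham 3 was the lowest for 67. In 70 members SNI 2 and SNI 3 both lay above SNI 1 and SNI 4. The median member stood 0.12, 0.46, 0.62 and 0.23 (log2) above the Sham mean in SNI 1 to 4, where the median over all genes was at most 0.02. SNI 1 was above all Sham libraries in 43 members and SNI 3 in 73. The median coefficient of variation of a member was 8.82% among Sham libraries and 16.0% among SNI libraries.

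**Figure D3:**
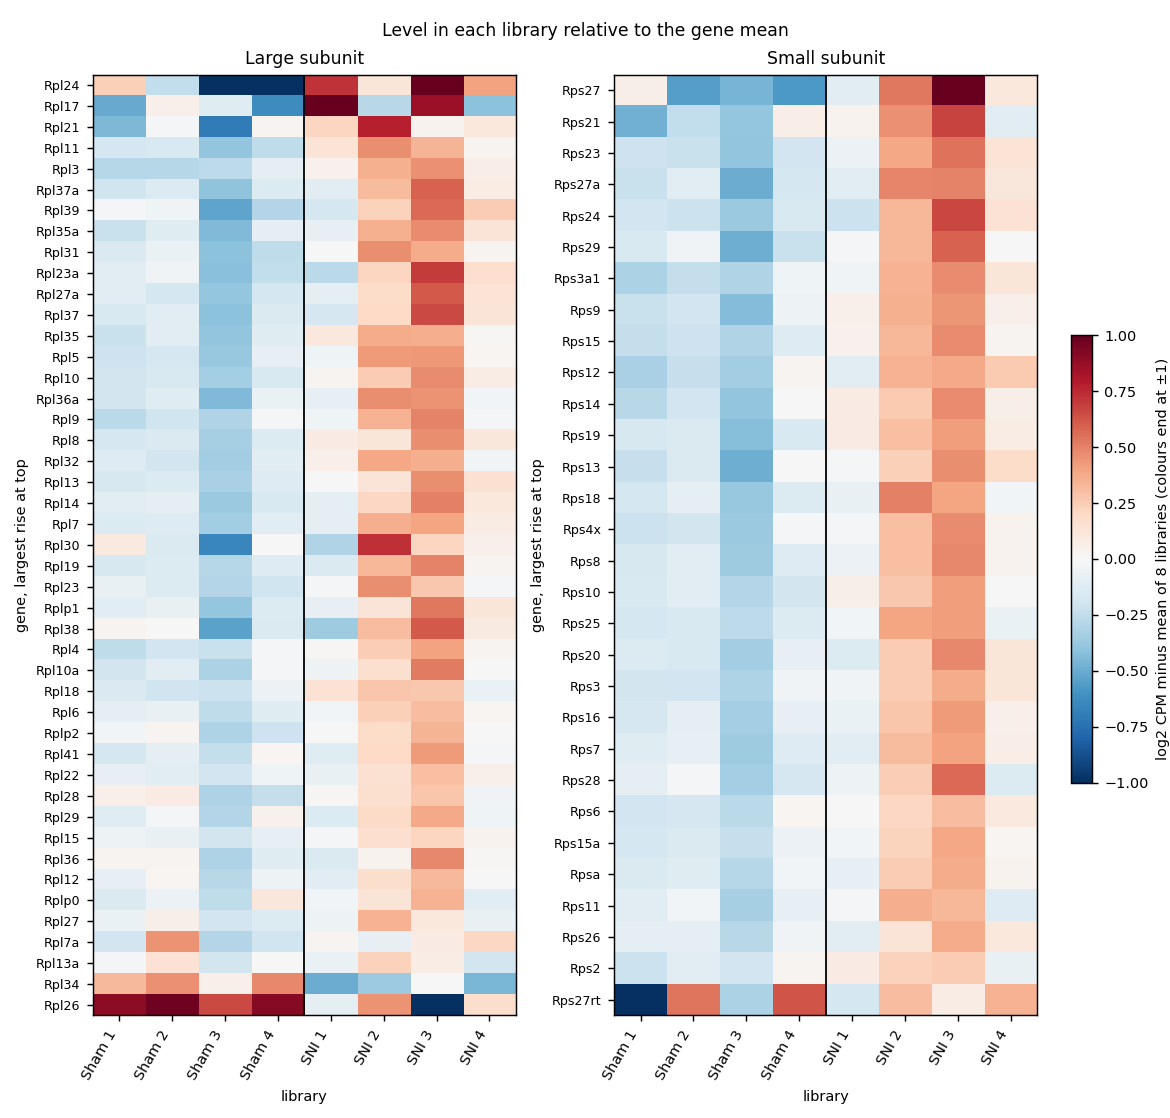
Log2 CPM of 75 members (rows) in each library (columns) minus its mean over 8 libraries. The columns of SNI 2 and SNI 3 are high and that of Sham 3 is low for nearly all rows, and Rpl34 and Rpl26 at the foot of the left panel are lower in SNI than in Sham.

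In the large subunit 13 of 46 members rose and Rpl34 fell, with a median log2 fold change of 0.38. Rpl11 and Rpl5 sit with 5S ribosomal RNA in a particle that, off the ribosome, binds the p53 regulator Mdm2. Rpl11 (chr4:136028265-136053428, minus strand) was at 246, 248, 210.3 and 232 CPM in Sham 1 to 4 and at 304.5, 382, 349 and 281 CPM in SNI 1 to 4. The groups did not overlap, and SNI 2 was highest. The log2 fold change was 0.49 ± 0.10 (SE), with an adjusted p of 0.0109 and of at most 0.0487 with any library left out. Rpl5 was at 243, 249, 216 and 264 CPM in the Sham libraries and 272, 376, 379 and 283 CPM in SNI. Its groups did not overlap either, but SNI 1 and SNI 4 were close to Sham 4. It rose by 0.43 ± 0.11, with an adjusted p of 0.0378, and of 0.131 without Sham 3. It also lost the call without Sham 1, Sham 2, SNI 2 or SNI 3.

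Rpl3, which lies near the site where peptide bonds form, was at 483, 483, 491 and 554 CPM in the Sham libraries and 604, 754, 806 and 615 CPM in SNI. Every SNI library was above every Sham library. The log2 fold change was 0.47 ± 0.10 and the adjusted p 0.0156, which became 0.0554 without Sham 3, and the call was also lost without SNI 3. Rpl4, which lines the exit tunnel, rose by 0.35 ± 0.10 (adjusted p = 0.0493, and 0.145 without Sham 3). Rpl10, one of the last proteins to join the large subunit, was at 242, 247, 217 and 247 CPM in the Sham libraries and 280.5, 328, 381 and 289 CPM in SNI. It rose by 0.42 ± 0.10 (adjusted p = 0.0216, and 0.0820 without Sham 3). Rpl8, one of the 3 members for which no near-identical gene was found, went from 326 ± 20.7 to 429 ± 56.3 CPM (mean ± SD, n = 4; adjusted p = 0.0257, and 0.0935 without Sham 3). The call was also lost without Sham 1, Sham 2, SNI 2 or SNI 3 for Rpl4, without SNI 3 for Rpl10, and without Sham 1 or SNI 3 for Rpl8. Rpl13, Rpl18, Rpl31, Rpl32, Rpl35 and Rpl35a also passed, with log2 fold changes of 0.31 for Rpl18 up to 0.45 for Rpl35a. These 6 lost the call without at least 3 of the 8 libraries each, Sham 3 and SNI 3 among them.

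The stalk of the large subunit, which recruits elongation factors, is made of Rplp0, Rplp1 and Rplp2, with Rpl12 at its base. None of these 4 passed by edgeR, and 2 of them, Rplp1 and Rplp2, had an unadjusted p below 0.05. At that p, 1439 of all 13911 genes tested were higher and 1492 lower. DESeq2 called Rplp1 (adjusted p = 0.0343). Rplp0, a common reference gene in RNA assays, was at 246, 261, 228 and 294 CPM in the Sham libraries and 267, 297, 346 and 252 CPM in SNI. The groups overlapped, with Sham 4 above SNI 1 and SNI 4. The log2 fold change was 0.18 ± 0.10 (adjusted p = 0.360). For Rplp1, Rplp2 and Rpl12 the fitted values were 0.36 ± 0.12, 0.26 ± 0.10 and 0.20 ± 0.10, with adjusted p of 0.0854, 0.135 and 0.259.

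Rpl22, which also binds other RNAs, was at 0.22 ± 0.09 (adjusted p = 0.154). Rpl38, known from mouse skeletal patterning, was at 0.35 ± 0.20 (adjusted p = 0.360). Rpl39 and Rpl41, the shortest proteins of the large subunit, were at 0.45 ± 0.15 and 0.26 ± 0.11 (adjusted p = 0.116 and 0.180). None of these 4 passed by edgeR, and DESeq2 called Rpl39 (adjusted p = 0.0321).

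In the small subunit 14 of 32 members rose and none fell, with all 32 above 0 and a median log2 fold change of 0.41. Rps23 reaches into the centre where codons are read. It was at 253, 249.9, 222.5 and 256 CPM in the Sham libraries and 281, 383, 426 and 321 CPM in SNI. The groups did not overlap, with SNI 2 and SNI 3 well above the rest. Its log2 fold change of 0.52 ± 0.11 was the largest among the members that passed (adjusted p = 0.0159, and 0.0600 without Sham 3). The call was also lost without SNI 2 or SNI 3. Rps27a, made as a fusion with ubiquitin, was at 94.4, 101.5, 78.2 and 97.5 CPM in the Sham libraries and 102.5, 154, 155 and 119 CPM in SNI. SNI 1 lay just above Sham 2, and SNI 2 and SNI 3 carried most of the difference. It rose by 0.52 ± 0.13 (adjusted p = 0.0359, and 0.111 without SNI 2), with the call lost also without Sham 1, Sham 3, Sham 4 or SNI 3.

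Rps19 and Rps14, whose loss of a copy causes anaemia in humans, both rose by 0.44, with standard errors of 0.10. Rps19 was at 181, 183, 151 and 182 CPM in the Sham libraries and 213, 249, 269 and 212.5 CPM in SNI. Rps14 was at 341, 361, 315 and 411 CPM in the Sham libraries and 437, 495, 573 and 430.4 CPM in SNI. In both genes the groups were apart, in Rps14 by a small gap between Sham 4 and SNI 4. The adjusted p was 0.0167 for Rps19 and 0.0258 for Rps14, and without Sham 3 it was 0.0711 and 0.0958. Rps3, at the entry of the mRNA channel, rose by 0.36 ± 0.09 (adjusted p = 0.0358, and 0.129 without Sham 3). Rps4x rose by 0.40 ± 0.11 (adjusted p = 0.0453, and 0.147 without Sham 3). All 4 of these genes lost the call without SNI 3 as well, and Rps14, Rps3 and Rps4x also without Sham 1, Sham 2 or SNI 2. Rps3 lost it without SNI 4 too. Rps3a1, Rps9, Rps10, Rps12, Rps13 and Rps15 passed as well. Their log2 fold changes were 0.38 for Rps10 up to 0.46 for Rps3a1, and each lost the call without at least 3 libraries, Sham 3 and SNI 3 among them.

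Rps6 is the substrate of the S6 kinases downstream of mTORC1, and its phosphorylation, which RNA counts do not measure, is used as a marker of neuronal activity. It was at 270.0, 274, 256 and 313 CPM in the Sham libraries and 309, 357.5, 383 and 331 CPM in SNI. Sham 4 lay above SNI 1, so the groups overlapped. The log2 fold change was 0.31 ± 0.09 and missed the threshold (adjusted p = 0.0551). Rpsa, also known as a laminin receptor, was at 0.30 ± 0.10 (adjusted p = 0.0949), and Rps25, known for its part in initiation at viral internal entry sites, at 0.38 ± 0.11 (adjusted p = 0.0563). DESeq2, which called 3.67% of all genes higher, called Rps6, Rpsa and Rps25 (adjusted p = 0.0154, 0.0486 and 0.0199).

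**Figure D4:**
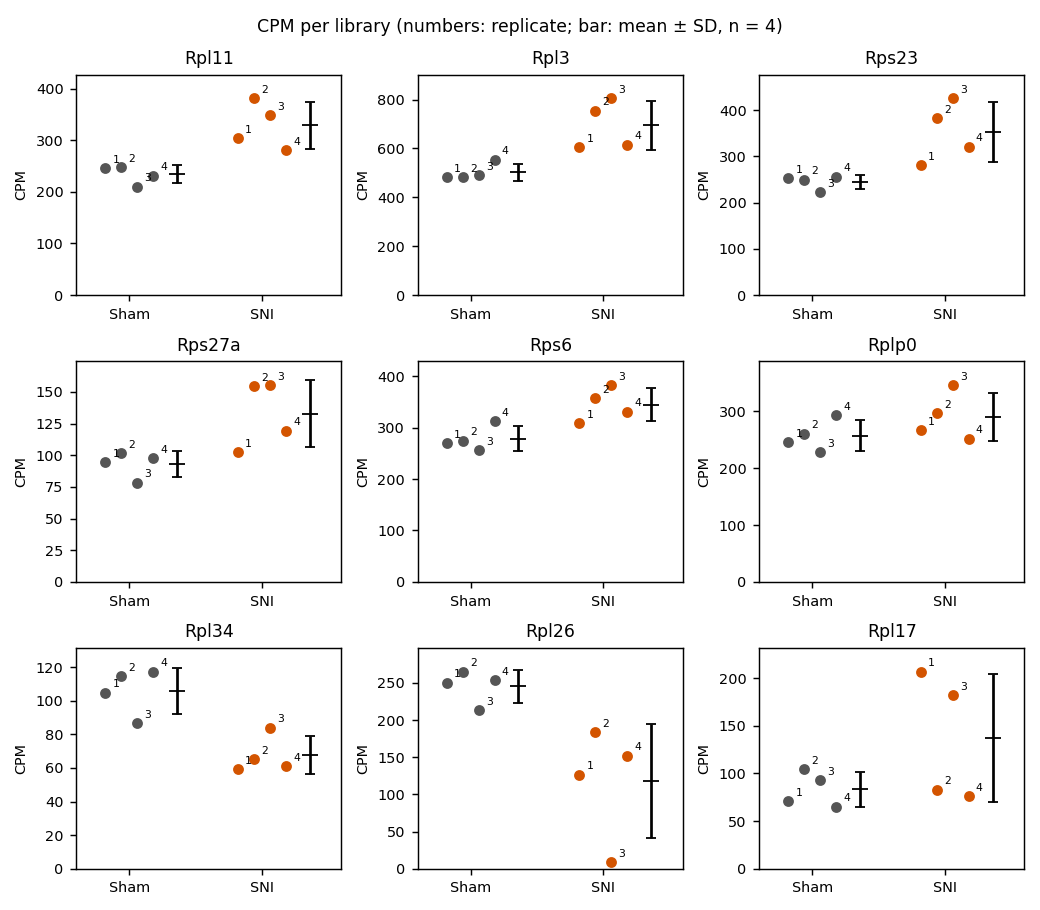
CPM in each library for 9 members, with the replicate number beside each point and the mean ± SD (n = 4) at its right. Rpl11, Rpl3, Rps23 and Rps27a separate the groups upward, Rpl34 and Rpl26 downward, and Rps6, Rplp0 and Rpl17 overlap.

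Rpl34 was the member that fell. Its gene (chr3:130726831-130730398, minus strand, GENCODE M21 on GRCm38) codes for a protein of the large subunit. It was at 105, 115, 86.6 and 117 CPM in the Sham libraries and 59.3, 65.2, 83.9 and 61.2 CPM in SNI. All SNI libraries lay below all Sham libraries, and the gap was small between SNI 3 and Sham 3, the libraries at the 2 ends for the other members. The means were 106 ± 13.9 and 67.4 ± 11.3 CPM, and the log2 fold change was -0.65 ± 0.12 (adjusted p = 0.00753). The adjusted p was at most 0.0361 with any library left out, and the call was lost without SNI 2 and SNI 4 together (-0.56, adjusted p = 0.0957). The annotation holds 5 near-identical genes, all pseudogenes without a row in the table.

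Rpl26 (chr11:68901583-68906989, plus strand) had the lowest fitted value, -1.05 ± 0.75, and did not pass (adjusted p = 0.480). It was at 250.2, 265, 213 and 253 CPM in the Sham libraries and 127, 184, 8.59 and 152 CPM in SNI. All SNI libraries lay below all Sham libraries, and SNI 3, the library highest in most members, held 129 counts of Rpl26 against 2043 to 4414 in the others. Without SNI 3 the log2 fold change was -0.67 and the adjusted p 0.0158, and without SNI 2 and SNI 3 they were -0.81 and 0.00354. Its 6 near-identical genes are pseudogenes without rows. Rpl34 and Rpl26 were the only members with all 4 SNI libraries below all Sham libraries, a pattern seen in 7.02% of all genes.

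Some members with large fitted values were uneven between libraries. Rpl17 was at 70.8, 104, 92.6 and 65.1 CPM in the Sham libraries and 206.5, 83.1, 182 and 75.9 CPM in SNI. SNI 1 and SNI 3 were high and the other SNI libraries lay within the Sham range (log2 fold change 0.72 ± 0.39, adjusted p = 0.361). Rps27 was at 110.3, 72.0, 76.5 and 71.0 CPM in the Sham libraries and 97.8, 152, 213 and 114 CPM in SNI, and Rps27rt at 15.6, 59.4, 33.1 and 63.6 CPM in the Sham libraries and 36.4, 51.0, 43.3 and 52.2 CPM in SNI. The library highest in Rps27 among Sham, Sham 1, was the lowest of the 8 in Rps27rt. Counts of such near-identical genes can be divided between rows by the counting. Summed, the pair was at 126, 131.5, 109.6 and 135 CPM in the Sham libraries and 134, 203, 256 and 166 CPM in SNI, with a log2 fold change of 0.60 (adjusted p = 0.0756). Rps21 and Rpl21 were at 0.54 ± 0.18 and 0.57 ± 0.21 (adjusted p = 0.123 and 0.173), and Rpl21 has 57 near-identical genes in the annotation. With the counts of its copy BC004004 added, Rpl21 was at 0.37 (adjusted p = 0.101). Rps21 was called by DESeq2 (adjusted p = 0.0132) and by edgeR without SNI 4 (adjusted p = 0.0370).

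Between genes, levels were set side by side as CPM per kilobase of coding sequence, averaged over 8 libraries. The median member was at 445. Rpl41, whose coding sequence of 75 bases inflates this scale, was at 7179, Rplp1 at 1729 and Rps29 at 1074. At the other end were Rpl7a at 66.5, Rpl13a at 41.8 and Rpl24 at 2.08. Rpl24 had 6 to 27 counts in a library, too few for a firm fold change (1.07 ± 0.39, adjusted p = 0.129), and shares its strand and position with Gm28037, a gene with no row. Rpl13a, known for silencing inflammatory mRNAs once released from the ribosome, overlaps Gm45713. It was at 25.2 ± 2.34 CPM in the Sham libraries and 25.7 ± 3.23 CPM in SNI, a log2 fold change of 0.03 ± 0.11. For Rpl7a, with 31 near-identical genes, the value was 0.09 ± 0.14 (adjusted p = 0.773). In all, 75 members have at least 1 near-identical gene in the annotation (at least 95% identity over 80% of the coding sequence), with a median of 5, and 15 have one with a row of its own. The low levels of these genes may therefore be a matter of how their reads were counted, which was not tested.

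The balance among the members was looked at with each library scaled by its summed member counts, in place of all genes. This scale holds the members' summed counts equal in every library. By construction it removes a rise shared by the members and brings their median near 0. The median of all genes tested shifted to -0.33, and that of the members was 0.02. The middle 50% of members lay between -0.06 and 0.08, and 69 of 78 within 0.2 of 0. By edgeR 0 members were called higher (background 0.683%), with 1 at an unadjusted p below 0.05 (1.22% of all genes). Rpl34 was the single call, lower at -1.01 (adjusted p = 1.27e-06), on a scale where 30.8% of all genes were called lower. Rpl26 was at -1.34 (adjusted p = 0.221).

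Ribosomal protein genes outside the symbol rule gave mixed values. Of 7 tested, Rps27l, a paralog of Rps27, rose from 12.1 ± 1.83 to 17.1 ± 2.38 CPM (0.50 ± 0.14, adjusted p = 0.0465), and it lost the call without each of 6 libraries (up to 0.155 without Sham 3). Fau, which encodes a ribosomal protein fused to a ubiquitin-like protein, was at 0.36 ± 0.12 (adjusted p = 0.0912). Rack1, a signalling scaffold on the small subunit, was at 0.26 ± 0.10 (adjusted p = 0.138). Mitochondrial ribosomal proteins had a median of -0.00198, with 0 of 77 higher and 1 lower by edgeR. At an unadjusted p below 0.05, 2 were higher and 6 lower, against 1439 and 1492 of all 13911 genes tested. Proteasome subunits had a median of 0.04, with 0 of 38 called by edgeR, DESeq2 or voom and 2 higher at an unadjusted p below 0.05. SNI 2 was the highest of the SNI libraries in the summed CPM of both of these lists, and SNI 3 lay within the Sham range in both.

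Of 19 other mRNAs known for a TOP start, 3 rose and 17 were above 0, with a median log2 fold change of 0.18. Eef1g, a subunit of the exchange factor for eEF1A, which brings tRNA to the ribosome, was at 269, 291, 283 and 291 CPM in the Sham libraries and 314, 356, 383 and 337 CPM in SNI. Eif3e, of initiation factor eIF3, went from 79.98 ± 1.86 to 99.1 ± 9.202 CPM. Btf3, of the complex that meets the new chain at the exit tunnel, went from 97.0 ± 3.94 to 126 ± 12.9 CPM. All 3 had their groups apart, with log2 fold changes of 0.29, 0.31 and 0.38 (adjusted p = 0.0459, 0.0351 and 0.0171). Btf3 lost the call without Sham 3 (0.0766) or SNI 3, Eif3e without each of 6 libraries (up to 0.118) and Eef1g without each of 7 (up to 0.129). Eef1a1, the most abundant of the list, was at 0.33 ± 0.10 (adjusted p = 0.0600), and Eef2 at -0.01 ± 0.08. The list value, a mean log2 deviation, was lowest in Sham 3 and highest in SNI 2 and SNI 3, as for the ribosomal proteins.

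Other lists of translation genes had medians closer to 0. They share genes with the TOP list, among them Eef1g, Eif3e and Btf3, which are counted again here. Of 10 elongation factors 1 rose (Eef1g; median -0.01), and of 37 initiation factors 1 (Eif3e; median 0.03). Among 15 factors at the exit of the ribosome 1 rose (Btf3; median 0.10). Of 62 ribosome biogenesis genes none passed by edgeR, 7 had an unadjusted p below 0.05 (4 higher, 3 lower) and DESeq2 called 1 and voom 0. The median was 0.03, and those of smallest p were Gnl3 (0.41 ± 0.12, adjusted p = 0.0532), Polr1c (0.30 ± 0.10, 0.0822) and Fbl (-0.23 ± 0.08, 0.115). Of 22 genes for mTORC1 and the control of TOP mRNAs, 2 fell, 20 were below 0 and the median was -0.10. None rose by edgeR, DESeq2 or voom, with 1 higher at an unadjusted p below 0.05. Over all 13911 genes tested, 1439 were higher and 1492 lower at that unadjusted p. Akt1s1, an inhibitor within mTORC1, fell by 0.37 ± 0.09 (adjusted p = 0.0258, and 0.0864 without SNI 3), and it also lost the call without Sham 1 or Sham 3. Mycn, a transcription factor known to raise ribosome production, fell by 0.59 ± 0.14 (adjusted p = 0.0270, and 0.0886 without SNI 3), and lost the call without 5 of the libraries. Larp1 was at -0.14 ± 0.09 (adjusted p = 0.384) and Mtor at -0.01 ± 0.07 (adjusted p = 0.945).

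Marker lists of cell types also differed between libraries, some in the same libraries as the members and some in others. In bulk tissue, fewer cells of a type and less RNA per cell cannot be told apart. Excitatory neuron markers (8 of 8 tested, with Slc17a7 at 1843 CPM in Sham) had 2 lower and 7 below 0. Their summed CPM was 6699 to 7398 in Sham and 4652 to 6450 in SNI, and their mean log2 deviation was lowest in SNI 2 and SNI 3. Nrgn and Nrn1 fell in all 8 left-out fits. Microglia markers had 2 of 9 higher, P2ry12 and Tmem119. Both lost the call without SNI 3 (adjusted p = 0.0964 and 0.0742) and without Sham 1, Sham 2 or Sham 3. P2ry12 lost it also without Sham 4 or SNI 2. The microglia list summed 402 to 489.6 CPM in the Sham libraries and 453 to 720.1 CPM in SNI, highest in SNI 3. Blood markers (5 of 7 with a row) had 1 higher, the globin Hba-a1, and summed 33.2 to 63.8 CPM in the Sham libraries and 84.2 to 193 CPM in SNI, with 191 and 193 in SNI 2 and SNI 3. Choroid plexus and ependymal markers (4 of 8 with a row) had 2 higher, Clic6 and Ttr, at sums of 5.25 to 7.40 CPM and 10.7 to 15.5 CPM. Hba-a1, Clic6 and Ttr each lost the call without Sham 1, among other libraries. Astrocyte (0 of 8), interneuron (0 of 8), oligodendrocyte (0 of 8), endothelial (0 of 7) and striatal (0 of 10) markers had no call by edgeR. At an unadjusted p below 0.05 these lists had 1, 0, 0, 1 and 5 higher, against 1439 of all 13911 genes tested. DESeq2 called 1 striatal marker, Ppp1r1b (adjusted p = 0.0445). The striatal list had a median log2 fold change of 0.90 with 9 of 10 above 0, and summed 341 to 584 CPM in the Sham libraries and 449 to 983 CPM in SNI, with 983 and 963 in SNI 2 and SNI 4. The genes of smallest p in it were the dopamine receptors Drd1 and Drd2 and the signalling protein Ppp1r1b, with log2 fold changes of 0.98, 1.91 and 1.02 and edgeR adjusted p of 0.150, 0.174 and 0.150. Those of the astrocyte list were Gfap, Sox9 and Aqp4 (0.94, 0.17 and -0.21), and those of the interneuron list Dlx1, Slc32a1 and Lhx6 (-0.30, -0.12 and 0.13). In the oligodendrocyte list they included Mobp and Mbp (0.36 and 0.26), and in the endothelial list they were Flt1, Slco1a4 and Ly6c1 (0.30, 0.21 and -0.20). Of 6 oligodendrocyte precursor markers Gpr17 was lower (lost without Sham 3, SNI 2 or SNI 3). No marker with a row was at 0, since every count in the table is at least 1. The part of these markers in the values of the ribosomal protein genes was not tested.

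The members have short coding sequences, with a median of 454.5 bases against 1353 over all genes tested, and 56 of 78 are at most 600 bases long. Other genes of at most 600 bases had a median log2 fold change of 0.03, with 2.36% higher, close to the 2.15% over all genes. With a library-wise offset for coding length fitted on the other genes, 38 members were called higher (background 2.38%) with a median of 0.37, and with an offset for GC content 34 were (background 2.93%) with a median of 0.39.

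**Figure D5:**
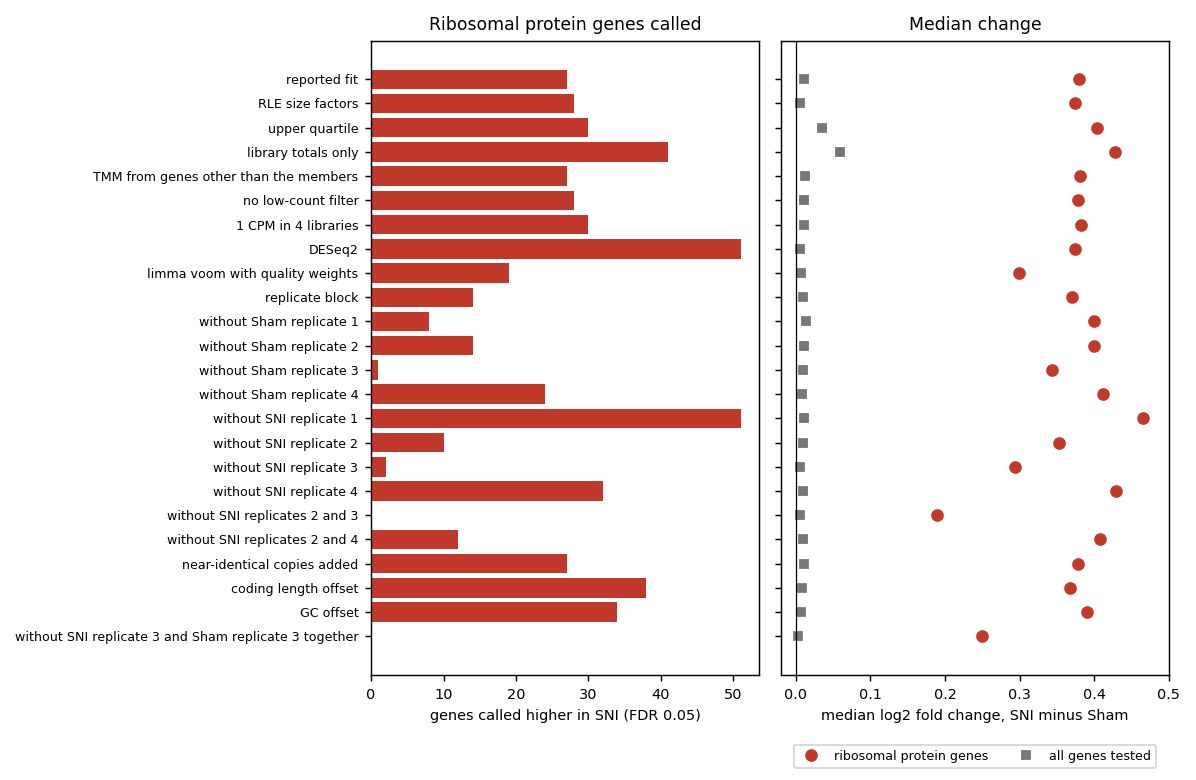
Members called higher in SNI (left) and median log2 fold change of the members and of all genes tested (right) in the reported fit and 23 alternatives, without the scaling by member counts. The count runs from 0 to 51, while the median of the members lies between 0.19 and 0.47 and that of all genes stays below 0.06.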

How the data were processed

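The deposited table holds whole-number counts per gene symbol for 8 libraries, with 14735602 to 19602487 counts each. Per the labels' protocols, poly(A) RNA was sequenced with a strand-marking (dUTP) kit. Per the submitters' processing notes, the authors used StringTie, HISAT2 and fastp (versions not listed) with the GRCm38 build. The sources used here name no counting method or strand setting. Same-group libraries differed by more than sampling noise (chi-square per degree of freedom 7.54 to 28.9).

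Counts were tested with edgeR 4.0.16 in R 4.3.3 (filterByExpr, TMM, robust quasi-likelihood fit, group only, two-sided, Benjamini-Hochberg over 13911 genes), after a check of the fit on simulated data. CPM are TMM-scaled. Alternatives used DESeq2 1.42.0, limma 3.58.1, other scalings and filters, and left-out libraries. Near-identical genes were sought with blastn 2.17.0 in GENCODE M21 transcripts, in which all 78 members matched by symbol. The members and lists were chosen with earlier results of these data known. A few genes, 3 of them members, count in every total but are not reported here by name. The text names the other members past the threshold, the 5 largest and smallest fold changes, fixed roles, the 3 highest and lowest levels and, of each other list, genes past the threshold or the 3 of smallest p.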

Additional observations from a re-analysis of the deposited data

Results flagged for a closer look

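In 7 of 100 groups of 4 libraries examined, 1 library lay far from the other 3: the gap to its nearest neighbour passed Dixon's 95% critical value as a share of the group's range. Chance flags about 1 in 20 such groups. Sham 3 was low in Rpl10 (217 CPM, others 242 to 247), Rpl13 (359 CPM, others 404 to 413) and Rps19 (151 CPM, others 181 to 183). Rpl3 was high in Sham 4 (554 CPM, others 483 to 491) and Rpl8 in SNI 3 (513 CPM, others 394 to 405). Among members with near-identical genes, Rps27 was high in Sham 1 (110.3 CPM, others 71.0 to 76.5) and Rpl7a in Sham 2 (71.5 CPM, others 42.7 to 45.9).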

How the results depend on the processing

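The number of members called higher (27) was 41 with library totals (background 3.21%), 51 with DESeq2 (3.67%), 14 with the replicate block (1.52%), 0 with libraries scaled by member counts (median 0.0199), 12 without SNI 2 and SNI 4 (1.23%), 0 without SNI 2 and SNI 3 (median 0.19) and 0 without Sham 3 and SNI 3. It ran from 1 to 51 with 1 library left out. Replicate numbers showed no sign of pairing the samples: same-number correlations of deviations were -0.03, -0.01, -0.08 and -0.15. Those between different numbers ran from -0.18 to 0.22, and so few libraries cannot settle whether the samples were paired. The block also called Rpl21 (adjusted p = 0.0180). Calls lower (1) ran from 1 to 2 with 1 library left out (Rpl26 joined without SNI 3, background 1.42%), and were 2 without SNI 2 and SNI 3 (0.909%), 2 without Sham 3 and SNI 3 (0.351%) and 0 without SNI 2 and SNI 4 (1.88%). The median ran from 0.29 to 0.47 with 1 library left out.

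All genes called (698) became 4386 with member scaling, 1165 with DESeq2, 178 without SNI 2 and SNI 3, 438 without SNI 2 and SNI 4, 59 without Sham 3 and SNI 3, and 258 to 858 with 1 library left out. Member scaling lowered the median of all genes to -0.33, so by construction it left 49 of 78 members above 0 (76 with TMM). Among genes called with TMM, the value went below 0 for Rpl18 (-0.0401), Rpl4 (-0.0141), Eef1g (-0.0620) and Eif3e (-0.0445). For the other alternatives the cause was not tested, except that fewer libraries also mean less power. Of 1940 values of 81 named genes under 24 alternatives, 1564 kept their side of the threshold, 326 lost the call, 46 gained it and 4 are those just named. Rpl24, at about 1 CPM, had too few counts for a firm fold change, and why its level was low was not tested. The offsets for length and GC, the added copies and leaving out Sham 3 with SNI 3 were chosen after seeing the data.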
